A study of Mus musculus with 18 samples.

Results

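The genes of major histocompatibility complex (MHC) class I antigen presentation were followed through postnatal life in the ileum of mice, the stretch of small bowel that ends at the cecum. The 9 genes were H2-K1, H2-D1, B2m, Tap1, Tap2, Tapbp, Psmb8, Psmb9 and Psmb10, of 18194 genes that had a probe set with 1 annotated symbol. They were chosen by name, and where a gene had several such probe sets the brightest on average was used. All mice were C57BL/6, an inbred strain with no transgene or treatment named in the labels. Mice were 4, 7, 9, 11, 24 or 32 days old, with 3 individual animals and 3 arrays at each age. Each piece held the full wall, so epithelium, muscle, vessels and immune cells all gave RNA. Days 4, 7, 9 and 11 (12 arrays) are called before weaning and days 24 and 32 (6 arrays) after weaning; the labels give no day of weaning, and laboratory mice are usually weaned between these ages. Since whole tissue was measured, more cells of a type and more RNA per cell cannot be told apart.

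MHC class I molecules show fragments of a cell's own proteins to CD8 T cells. Proteasomes cut the proteins, and 3 of their catalytic subunits can be exchanged for immunoproteasome subunits. The TAP transporter moves the fragments into the endoplasmic reticulum, where tapasin and chaperones load them onto a heavy chain paired with beta-2-microglobulin. Interferons and the transactivator NLRC5 are known to raise many genes of this pathway together.

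The values are log2 levels of the authors' RMA table, and a log2 difference of 1 is a doubling; errors of differences are standard errors (SE) of the limma fit. The lowest correlation between arrays of 1 age was 0.983 over the probe sets, and array medians ran from 3.88 to 3.97, a range in which signal cannot be separated from background. The ileal enterocyte markers summed to 12.96 to 13.28 before and 14.13 to 14.40 after weaning. Of the 4 stomach markers, which summed to 6.83 to 7.41, Gkn1 and Atp4a stayed below 4 on every array, Gkn2 reached at most 4.08, and Tff1 stood at 6.43 to 7.06. Spike-in hybridization controls were higher on 10 arrays, among them all 6 after weaning and 4 before it. Xist, the RNA that coats the inactive X in females, was low on 8 arrays, 5 of them after weaning. Day 32 replicate 1 stood apart by immune cell markers, with general leukocyte markers summed to 11.15 against 8.29 to 9.05 on all other arrays; the class I genes and the class II and interferon gamma lists are also given without it.

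Of 8622 genes that passed the filter (log2 6 or more on at least 3 arrays), 68.3% changed across the 6 ages (limma F test, adjusted p below 0.05 over all genes tested). The 9 class I genes all passed the filter and all changed. Tap2 passed only through its arrays after weaning, so its inclusion was tied to its rise; with no filter the count after weaning was also 9. After weaning 9 of 9 were higher and 0 lower than before it, where 31.0% of all genes tested were called higher and 41.8% lower. The median log2 difference of the 9 genes was 0.89, beside -0.07 for all genes tested. For 6 of the 9 every array after weaning lay above every array before it, which held for 15.4% of genes tested. The plot of the 9 genes by array shows the step between day 11 and day 24 in 7 of them. On their chosen probe sets, H2-K1 and H2-D1 stand clear of the suckling ages only on day 32.

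**Figure D1:**
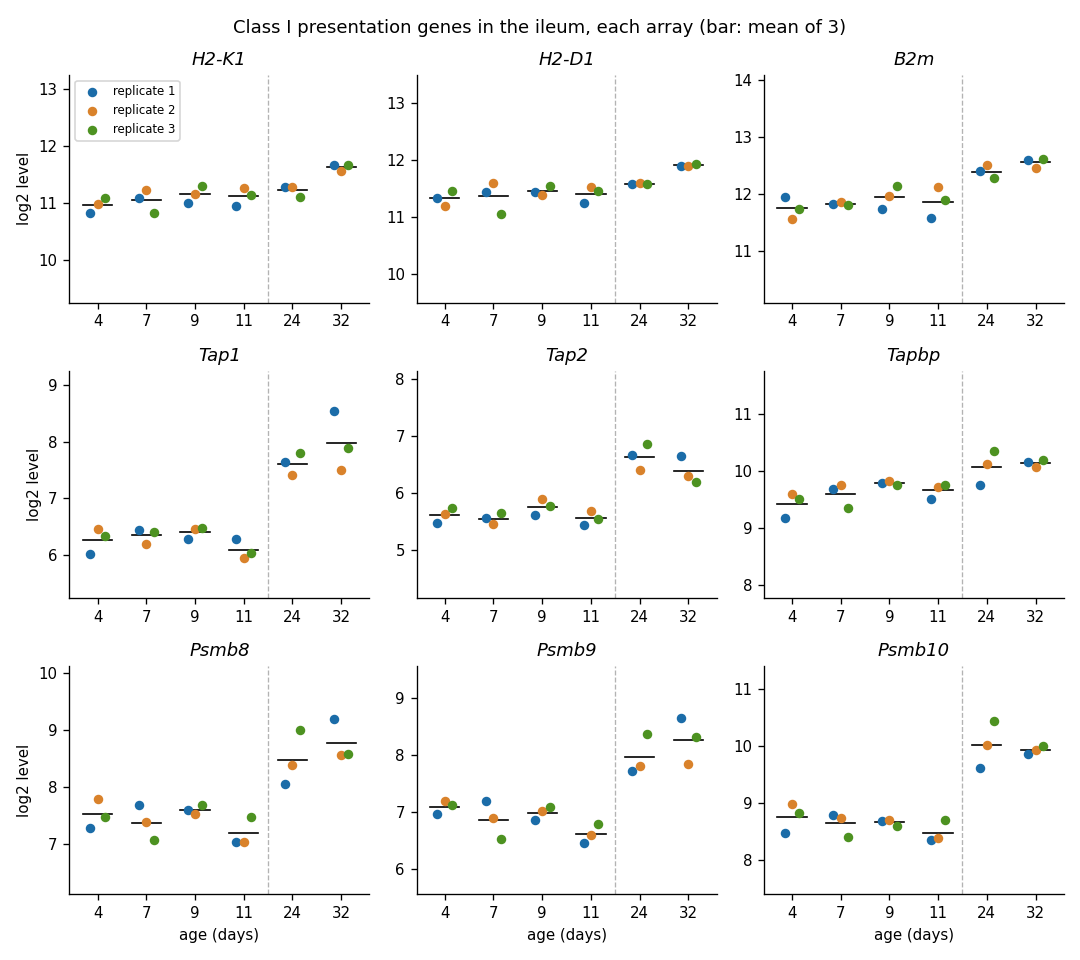
Log2 level of each class I gene (panels, each centred on its own gene with scales of equal length) against age in days; points are single arrays, coloured by a replicate number that pairs nothing across ages, bars are means of 3, and the dashed line separates the ages before and after weaning. Tap1 goes from 5.96 to 6.48 before weaning to 7.41 to 8.53 after it, while H2-K1 covers 10.83 to 11.31 and 11.11 to 11.68.

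H2-K1 and H2-D1 encode the polymorphic heavy chains that hold the peptide. On day 4 the H2-K1 level was 10.83, 10.98 and 11.10, and on day 11 it was 10.95, 11.27 and 11.15. It was 11.28, 11.29 and 11.11 on day 24, and 11.68, 11.56 and 11.68 on day 32. Day 24 thus overlapped the suckling arrays, and only day 32 lay above them. Over both later ages H2-K1 rose by 0.36 ± 0.08 (SE, n = 6 against 12; limma adjusted p = 0.000361), which is 1.28-fold. From day 24 to day 32 it rose by 0.42 ± 0.12 (adjusted p = 0.0356), the only class I gene called in that comparison, where 6.09% of genes tested were higher and 6.23% lower. With single arrays of these ages left out the difference ran from 0.36 to 0.46, and the call was lost in 5 of 6 such fits: without day 24 replicate 1 (adjusted p = 0.0515) or 3 (0.133), and without day 32 replicate 1 (0.0988), 2 (0.0639) or 3 (0.0756).

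H2-D1 followed the same course on its own probe set. Its level was 11.34, 11.20 and 11.45 on day 4, 11.24, 11.53 and 11.46 on day 11, 11.57, 11.60 and 11.57 on day 24, and 11.90, 11.90 and 11.93 on day 32. The 3 arrays of day 32 were the highest of all 18. H2-D1 was 1.28-fold higher after weaning (log2 0.36 ± 0.07, adjusted p = 0.000350). Between day 24 and day 32 it differed by 0.33 ± 0.12 (adjusted p = 0.0848), and between day 11 and day 24 by 0.17 ± 0.12 (adjusted p = 0.240). For both heavy chains the chosen probe set is of the type whose probes can match other transcripts, so each may read the other or further class I genes. Of 9 H2-D1 probe sets, 4 reached the filter, with differences after weaning of 0.26 to 0.99, and of 4 H2-K1 probe sets 3 did, with 0.36 to 0.58. From day 11 to day 24 these H2-D1 probe sets differed by 0.03 to 0.80 and these H2-K1 probe sets by 0.11 to 0.43. The size of that step, and so the late timing of the heavy chains, depended on the probe set.

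The sequences before a start of each heavy chain gene and of B2m are shown because these 3 genes make up the class I molecule, and that before Tap1 because it also serves Psmb9. They are RefSeq windows of GRCm38.p6, which held 8 of the 9 genes; no window was used for Tap2. Each run gives the 250 bases before the start, 5′ to 3′ along the gene, and capitals mark matches to the motifs named after them. H2-K1 lies at chr17:34000348-34000597 on the minus strand (the upstream one of 2 starts listed). The annotated H2-K1 gene spans chr17:33996012-34000619, so this run lies inside it. H2-D1 lies at chr17:35262844-35263093, B2m at chr2:122147437-122147686 and Tap1 at chr17:34187306-34187555, all 3 on the plus strand.
H2-K1: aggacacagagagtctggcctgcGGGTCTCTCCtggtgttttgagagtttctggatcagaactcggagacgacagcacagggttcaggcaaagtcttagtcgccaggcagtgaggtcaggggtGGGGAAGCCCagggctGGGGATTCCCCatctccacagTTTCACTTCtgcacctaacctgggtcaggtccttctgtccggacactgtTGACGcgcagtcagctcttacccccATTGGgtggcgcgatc
H2-D1: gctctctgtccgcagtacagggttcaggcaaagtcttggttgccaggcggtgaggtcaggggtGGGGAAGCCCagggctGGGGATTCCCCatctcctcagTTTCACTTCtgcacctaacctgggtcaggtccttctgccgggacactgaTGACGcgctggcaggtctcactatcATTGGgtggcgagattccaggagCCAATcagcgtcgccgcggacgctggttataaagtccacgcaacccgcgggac
B2m: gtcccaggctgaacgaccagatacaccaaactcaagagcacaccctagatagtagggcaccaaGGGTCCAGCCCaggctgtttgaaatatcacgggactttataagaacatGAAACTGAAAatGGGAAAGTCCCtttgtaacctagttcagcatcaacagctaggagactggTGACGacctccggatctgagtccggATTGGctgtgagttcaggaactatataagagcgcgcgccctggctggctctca
Tap1: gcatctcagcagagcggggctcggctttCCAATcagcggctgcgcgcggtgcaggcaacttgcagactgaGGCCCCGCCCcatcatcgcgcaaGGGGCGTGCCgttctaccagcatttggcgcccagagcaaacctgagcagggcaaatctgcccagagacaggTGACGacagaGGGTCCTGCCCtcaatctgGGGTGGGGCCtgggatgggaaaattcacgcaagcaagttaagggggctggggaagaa

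Motifs were searched on both strands of the windows from 250 bases before to 50 after the start, in all 32851 windows of the table. The interferon-stimulated response element, searched as GAAANNGAAA, matched in B2m alone of the 8 genes, at GAAACTGAAA from base -139 to -130 counted from the start, and in 3.44% of all windows. A shorter form, GAANNGAAA, added after the sequences were seen, matched in H2-K1 and H2-D1 and in 7.52% of windows. The gamma-activated site TTCNNNGAA matched in Psmb8 alone, from -97 to -89, and in 8.3% of windows. The kappa B motif GGGNNNNNCC matched in H2-K1, H2-D1, B2m, Tap1 and Psmb9 and in 50.8% of windows. The core TGACG, which occurs in the X2 box bound by CREB-type factors, matched in the same 5 genes and in 20.8% of windows. The CCAAT box matched in these and Tapbp, 6 of 8 genes, and in 37.4% of windows. Matches can overlap: in H2-K1 and H2-D1 several kappa B matches share bases. A match describes letters in a window and says nothing of binding in these mice.

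The windows of H2-K1 and H2-D1 were alike, with 211 of 239 aligned bases identical (88.3%). Tap1 and Psmb9 lie head to head with 226 bases between their starts, and 275 of the 300 bases of their windows are the same stretch read on opposite strands.

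B2m encodes beta-2-microglobulin, the light chain shared by class I molecules, by the neonatal Fc receptor and by CD1d. Its level was 11.95, 11.56 and 11.73 on day 4 and 11.58, 12.12 and 11.89 on day 11. It was 12.40, 12.50 and 12.27 on day 24 and 12.59, 12.46 and 12.62 on day 32. Every array after weaning lay above every array before it. B2m rose 1.55-fold after weaning (log2 0.63 ± 0.09, adjusted p = 2.59e-06). It rose by 0.53 ± 0.14 from day 11 to day 24 (adjusted p = 0.00333) and differed by 0.17 ± 0.14 from day 24 to day 32 (adjusted p = 0.464). Its second probe set gave 0.81 ± 0.13 after weaning.

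Tap1 and Tap2 encode the 2 chains of the peptide transporter. The Tap1 level ran from 5.96 to 6.48 with a median of 6.32 over the 12 arrays before weaning. It was 7.64, 7.41 and 7.79 on day 24 and 8.53, 7.50 and 7.89 on day 32, where replicate 1 was the highest. The groups did not overlap. Tap1 had the largest rise of the 9 genes after weaning, 2.84-fold (log2 1.50 ± 0.12, adjusted p = 2.01e-09), and without day 32 replicate 1 the rise was 1.36. Day 24 alone exceeded day 11 by 1.51 ± 0.19 (adjusted p = 2.99e-06), while day 32 exceeded day 24 by 0.36 ± 0.19 (adjusted p = 0.235) and by 0.08 without that replicate. The other 3 Tap1 probe sets had means of 3.15 or less and are not read here.

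Tap2 was dimmer, at 5.44 to 5.89 before weaning. It stood at 6.66, 6.40 and 6.86 on day 24 and at 6.65, 6.30 and 6.20 on day 32, again above every earlier array. It rose 1.85-fold after weaning (log2 0.89 ± 0.08, adjusted p = 2.58e-08), and by 1.08 ± 0.14 from day 11 to day 24. Its mean was lower on day 32 than on day 24 by 0.25 ± 0.14, which was not called (adjusted p = 0.245).

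Tapbp encodes tapasin, which holds the empty heavy chain at the transporter. Its level was 9.19, 9.60 and 9.52 on day 4, 9.52, 9.73 and 9.76 on day 11, 9.76, 10.13 and 10.35 on day 24, and 10.17, 10.07 and 10.20 on day 32. Day 24 replicate 1 lay within the suckling arrays and the other 5 later arrays above them. Tapbp rose 1.40-fold after weaning (log2 0.48 ± 0.09, adjusted p = 0.000100). Its step from day 11 to day 24 was 0.41 ± 0.15 (adjusted p = 0.0241), which was lost without day 24 replicate 3 (0.27, adjusted p = 0.139), day 24 replicate 2 (0.38, 0.0649) or day 11 replicate 1 (0.33, 0.0944), and with only the arrays of both ages fitted (0.41, 0.0676). A second Tapbp probe set went the other way, by -0.18 ± 0.18 after weaning, and the mean of both gave 0.15 (adjusted p = 0.183), so the rise of Tapbp rests on 1 probe set.

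The 3 immunoproteasome subunits all rose after weaning. From day 24 to day 32 Psmb8 and Psmb9 differed by 0.30 and 0.31 and Psmb10 by -0.09, none of them called. Psmb8 encodes the subunit that replaces Psmb5 in the catalytic core. Its level ran from 7.04 to 7.80 before weaning, and was 8.05, 8.39 and 9.00 on day 24 and 9.20, 8.56 and 8.59 on day 32. The groups did not overlap, and Psmb8 rose 2.31-fold (log2 1.21 ± 0.14, adjusted p = 2.99e-07). Without day 32 replicate 1 the rise was 1.11.

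Psmb9, which replaces Psmb6, ran from 6.46 to 7.19 before weaning and was 7.72, 7.80 and 8.37 on day 24 and 8.65, 7.85 and 8.31 on day 32. It rose 2.34-fold (log2 1.23 ± 0.12, adjusted p = 5.54e-08), with no overlap between the groups, and by 1.13 without day 32 replicate 1. Psmb9 was at its lowest on day 11 (6.46, 6.59 and 6.78), but the difference of -0.48 ± 0.20 from day 4 was not called (adjusted p = 0.203). No class I gene was called between day 4 and day 11, where 1.35% of genes tested were higher and 1.54% lower.

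Psmb10, which replaces Psmb7, ran from 8.35 to 8.98 before weaning, and was 9.61, 10.01 and 10.43 on day 24 and 9.85, 9.93 and 9.99 on day 32. It rose 2.54-fold (log2 1.34 ± 0.11, adjusted p = 2.15e-09). From day 11 to day 24 it rose by 1.54 ± 0.17 (adjusted p = 6.30e-07), and day 32 differed from day 24 by -0.09 ± 0.17 (adjusted p = 0.774). On this gene day 32 replicate 1 was the lowest of its age.

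From day 11 to day 24, 7 of the 9 genes rose, all but H2-K1 and H2-D1, and 0 fell, beside 26.8% of genes tested that were higher and 32.3% lower. H2-D1 was called with the hybridization group as a block (0.37, adjusted p = 0.00717), and with the mean of probe sets H2-D1 (0.33, 0.00571) and H2-K1 (0.37, 0.0162) both were. The step from day 11 to day 24 was compared with that from day 24 to day 32 in a contrast of its own. In it 17.7% of genes tested were called higher and 22.2% lower. Both steps share the day 24 arrays and span unequal numbers of days, so sizes and not rates were compared. The earlier step was the larger in 4 of the 9 genes: Psmb10 by 1.63 ± 0.30 (adjusted p = 0.000357), Tap2 by 1.33 ± 0.24 (0.000279), Tap1 by 1.15 ± 0.34 (0.0115) and Psmb9 by 1.04 ± 0.35 (0.0243). Psmb8 differed by 0.99 ± 0.39 (adjusted p = 0.0528); it was called under 7 alternatives (filter at log2 8, quantile, median and loess normalization, trend and robust, the hybridization block, and Xist; adjusted p 0.0337 to 0.0489) and with day 32 replicate 1 and day 24 replicate 1 left out together (1.63, 0.00361), and ran from 0.47 to 1.42 with single arrays left out. H2-K1 had -0.31 ± 0.21 (0.268) and H2-D1 -0.16 ± 0.21 (0.579), so the later step was not shown to be larger for the heavy chains. The plot of differences sets the comparisons side by side.

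**Figure D2:**
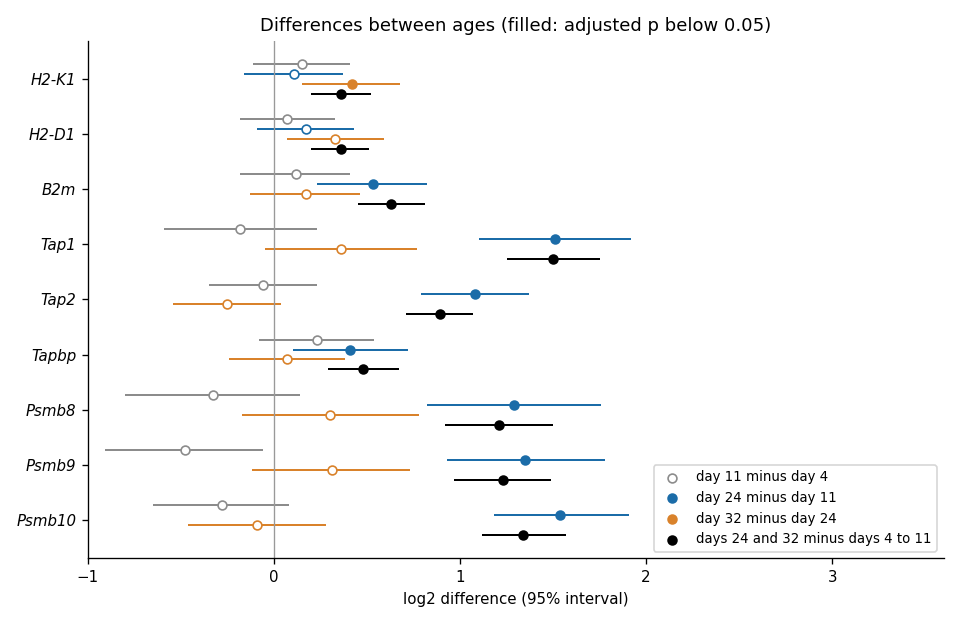
Log2 difference (horizontal axis) of each class I gene in 4 comparisons of ages, with 95% intervals from the limma fit; filled points have an adjusted p below 0.05 over all 8622 genes tested and open points do not. The steps from day 11 to day 24 of Tap1, Tap2 and the 3 Psmb genes lie between 1.08 and 1.54, and those of H2-K1 and H2-D1 at 0.11 and 0.17 with intervals that include 0.

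Days 24 and 32 had the 2 highest means in all 9 genes. The order of the suckling ages differed between genes: day 4 was the lowest age in H2-K1, H2-D1, B2m and Tapbp, and the highest suckling age in Psmb9 and Psmb10. Day 32 had the higher mean in 7 genes and day 24 in Tap2 and Psmb10. The arrays of these 2 ages overlapped in 7 genes and stood apart in H2-K1 and H2-D1. Day 4 overlapped day 7, and day 7 overlapped day 9, in all 9 genes. The arrays of day 11 all lay below those of day 9 in Tapbp (9.52 to 9.76 against 9.77 to 9.83), Psmb8 (7.04 to 7.48 against 7.53 to 7.68) and Psmb9 (6.46 to 6.78 against 6.85 to 7.09), and in Tap1 by less than the second decimal. The share of all genes tested whose neighbouring ages stood apart in this way was not determined. With so few arrays per age such gaps can arise by chance, and day 11 was not tested against day 9.

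The constitutive catalytic subunits were read as a comparison, since each is the counterpart that an immunoproteasome subunit replaces. Psmb5 was lower by 0.30 ± 0.10 and Psmb7 by 0.25 ± 0.07 after weaning (adjusted p = 0.0105 and 0.00519), and Psmb6 did not pass the test (adjusted p = 0.971), with a difference whose sign turned under quantile, median and loess scaling. Neither of the 2 falls was called with the hybridization group as a block, where the limma adjusted p was 0.422 and 0.124. Both calls were also lost with Xist as a covariate (0.1 and 0.196) and on the higher-hybridization arrays (0.44 and 0.105). The same held on the low-Xist arrays (0.203 and 0.185) and with day 32 replicate 1 and day 24 replicate 1 left out together (0.114 and 0.0534). Within each array the constitutive subunit was subtracted from its counterpart, and only the change of that value with age is read. Psmb8 minus Psmb5 went from -2.47 to -1.79 before weaning to -0.93 to 0.14 after it, a change of 1.50 or 2.84-fold. Psmb9 minus Psmb6 changed by 1.23 (2.35-fold) and Psmb10 minus Psmb7 by 1.60 (3.02-fold). In all 3 pairs no array after weaning overlapped one before it. Each had an exact two-sided permutation p of 5.39e-05 over 18564 assignments, the smallest they can give, and 5.39e-05 after adjustment over the 3 pairs. The immunoproteasome subunits by themselves had no overlap between the stages, so these p-values add little to their rise. Other subunits of the 20S core went both ways, 3 higher (Psmb3 by 0.51) and 3 lower (Psmb2 by -0.48) of 11, with a median of 0.03. Over all genes tested 31.0% were higher and 41.8% lower.

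**Figure D3:**
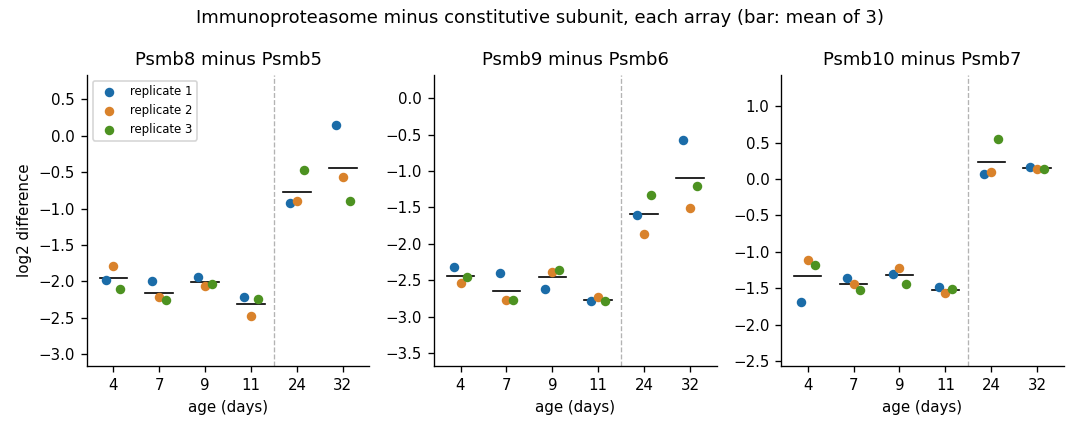
Log2 level of an immunoproteasome subunit minus that of its constitutive counterpart on each array (points), by age in days, with the mean of 3 as a bar and panel scales of equal length. The offset of a pair depends on its probes and is not read, while the change with age is: Psmb10 minus Psmb7 lies between -1.69 and -1.11 before weaning and between 0.07 and 0.55 after it.

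Among proteasome activators and assembly factors 3 of 7 tested rose and 0 fell, where 31.0% of all genes tested rose and 41.8% fell. Those called higher were Psme3 (0.52 ± 0.11) and Psme1 (0.25 ± 0.08), subunits of 11S caps, and Psme4 (0.21 ± 0.07). The call of Psme4 was lost with the hybridization block (0.13, adjusted p = 0.19), on the higher-hybridization arrays (0.13, 0.368) and on the low-Xist arrays (0.21, 0.229). Psme2, the partner of Psme1, was not analysed here. Among loading and trimming genes of the endoplasmic reticulum 6 of 10 rose and 1 fell, against the same shares of all genes tested, with a median of 0.27. The largest rise was in Tapbpl, a tapasin relative that edits bound peptides, 2.41-fold (1.27 ± 0.08, adjusted p = 1.61e-10); its levels ran from 5.77 to 6.20 before and from 6.90 to 7.75 after weaning. Erap1, the aminopeptidase that trims peptides in the endoplasmic reticulum, rose 1.48-fold (0.56 ± 0.09), and Sec61b, part of the translocation channel, 1.45-fold (0.53 ± 0.08). Of the general chaperones Calr rose by 0.23 ± 0.08 (adjusted p = 0.0183), while Canx had 0.18 ± 0.10 (0.123) and Pdia3 -0.16 ± 0.10 (0.159). With the hybridization block Canx was called (0.40, adjusted p = 0.00958; loess normalization and array weights also called it) and Calr was not (0.14, 0.261). The call of Calr was also lost with the mean of probe sets (0.15, 0.0857), with Xist as a covariate (0.26, 0.0501), on both array subsets, and without day 24 replicate 2 or 3 or day 32 replicate 2 (0.19 to 0.20, adjusted p 0.057 to 0.0604). Ero1a, an oxidase of the endoplasmic reticulum, fell 1.90-fold (-0.92 ± 0.09).

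The list of other class I and class I-like molecules had 5 lower and 1 higher of 7 tested, beside 41.8% and 31.0% of all genes tested. Without H2-Ke6, which is no such molecule, 4 were lower and 1 higher of 6. With no filter 4 of 15 were called higher and 5 lower, and with the hybridization block 3 of 7 were lower. Fcgrt, the heavy chain of the neonatal Fc receptor that carries maternal IgG across the suckling gut, pairs with the same light chain B2m. Its level was 11.33 to 12.20 before weaning and 7.84 to 8.38 after it, a fall of 13.0-fold (log2 -3.70 ± 0.09, adjusted p = 6.79e-17). Thus on the same 6 arrays B2m was 1.55-fold higher and Fcgrt 13.0-fold lower than before weaning. Procr, the endothelial protein C receptor, fell by 0.97 ± 0.08, Hfe, the iron regulator, by 0.44 ± 0.10, and Cd1d1, which presents lipids, by 0.27 ± 0.09. Procr, Hfe and Cd1d1 passed the filter only through their arrays before weaning. Their falls, and the count of lower genes, were thus tied to the filter. With the hybridization block neither Hfe (-0.21, adjusted p = 0.139) nor Cd1d1 (-0.30, 0.0508) was called; Cd1d1 was also lost on both array subsets, under quantile (-0.16, 0.127) and loess (-0.20, 0.0626) normalization and without day 24 replicate 2 (-0.21, 0.0652) or day 32 replicate 2 (-0.22, 0.0594). H2-Q2, a further class I gene, rose by 0.44 ± 0.13 and was the 1 called higher. That count was 0 with Xist as a covariate and on the higher-hybridization and low-Xist arrays. It was also 0 with day 32 replicate 1 and day 24 replicate 1 left out together. H2-Ke6, in the list by its symbol, lies in the H2 region but encodes a hydroxysteroid dehydrogenase and no class I molecule; it fell by 1.00 ± 0.14.

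Of the regulators of the pathway 5 were higher and 5 lower of 18 tested, beside 31.0% and 41.8% of all genes tested. Nlrc5, the class I transactivator, did not pass the filter and was not tested. Its level was 2.65 to 3.06 before weaning, within the range of background, then 2.94, 3.74 and 3.77 on day 24 and 6.08, 4.70 and 4.86 on day 32. All 3 arrays of day 32 were above all others, with replicate 1 the highest. Irf1, an interferon-induced activator of class I genes, rose 1.60-fold after weaning (0.67 ± 0.10, adjusted p = 5.14e-06) and already stood at 8.80 to 9.02 on day 11 against 8.28 to 8.58 on day 4, a difference that was not called. Irf8 rose by 1.09 ± 0.10, Jak2, a kinase of the interferon gamma receptor, by 1.01 ± 0.06 and Irf2 by 0.78 ± 0.16, the last not called with the hybridization group as a block (0.26, adjusted p = 0.113). Ifnar2, a chain of the type I interferon receptor, fell by 0.98 ± 0.09.

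Of the genes known to be induced by interferon gamma 10 of 11 tested rose and 1 fell, with a median of 1.44. Over all genes tested 31.0% rose and 41.8% fell. Irf1 and Psme1, given above, are also in the interferon gamma list. Ido1, Gbp2, Gbp6 and Irgm2 passed the filter only through arrays after weaning, so the count and median are partly set by the filter; with no filter 16 of 17 were called higher and 1 lower. The GTPases Irgm1 (1.87 ± 0.12, 3.66-fold), Gbp2 (1.80 ± 0.13) and Irgm2 (1.61 ± 0.14) were among them, and Gbp7 was the one that fell (-1.11 ± 0.13). Ido1, which degrades tryptophan, had the largest difference (3.70 ± 0.14), but it started from 2.47 to 3.14, levels that cannot be separated from background, so its size is uncertain. Genes known to follow type I interferon had 6 higher and 5 lower of 14, beside the same shares of all genes tested. Ifih1 and Oasl1 were up by 1.27 ± 0.07 and 1.07 ± 0.09 and Ifit1 was down by 1.27 ± 0.12. Usp18, also called higher, passed the filter only through its arrays after weaning. With no filter, which adds the dim Oas2, Oas3, Mx1, Mx2 and Isg20, 11 of 19 were called higher and 5 lower. From day 24 to day 32, 10 of these 14 fell and 0 rose, with a median of -0.81, while 3 of the 11 interferon gamma genes rose and 0 fell. Over all genes tested 6.09% rose and 6.23% fell between these ages. Without day 32 replicate 1 the count of interferon gamma genes that rose was 1, Ido1, and their median went from 0.52 to 0.29. The 9 class I genes had a median of 0.30 from day 24 to day 32, beside -0.01 for all genes tested. Without day 32 replicate 1, 0 of the 9 were called higher between these ages. The differences of Tap1, Psmb8 and Psmb9 then went from 0.36, 0.30 and 0.31 to 0.08, 0.09 and 0.12. That of H2-K1 went from 0.42 to 0.39 (limma adjusted p = 0.0988).

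MHC class II genes present peptides to CD4 T cells. After weaning 6 of them were higher and 1 lower of 8 tested, beside 31.0% and 41.8% of all genes tested. H2-DMa was up by 1.24 ± 0.14, H2-Ab1 by 1.05 ± 0.13 and the invariant chain Cd74 by 0.99 ± 0.15. H2-DMb2, also called higher, passed the filter only through arrays after weaning, so this count was partly set by the filter. With no filter 9 of 11 were called higher and 1 lower. The timing of the class II genes differed in the counts: 1 rose and 1 fell from day 11 to day 24, and 5 rose from day 24 to day 32, against 7 and then 1 of the class I genes that rose. Over all genes tested 26.8% rose and 32.3% fell in the earlier step, and 6.09% and 6.23% in the later. Without day 32 replicate 1 the class II counts were 3 higher and 1 lower from day 11 to day 24, and 3 higher (H2-Ab1, H2-Eb1 and Cd74) and 1 lower (H2-DMb2) from day 24 to day 32, where the median went from 0.76 to 0.38. After weaning they were then 7 higher and 1 lower, with H2-DMa at 1.05, H2-Ab1 at 0.91 and Cd74 at 0.82. The difference between the lists was not tested. The plot of the lists shows each gene after weaning.

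**Figure D4:**
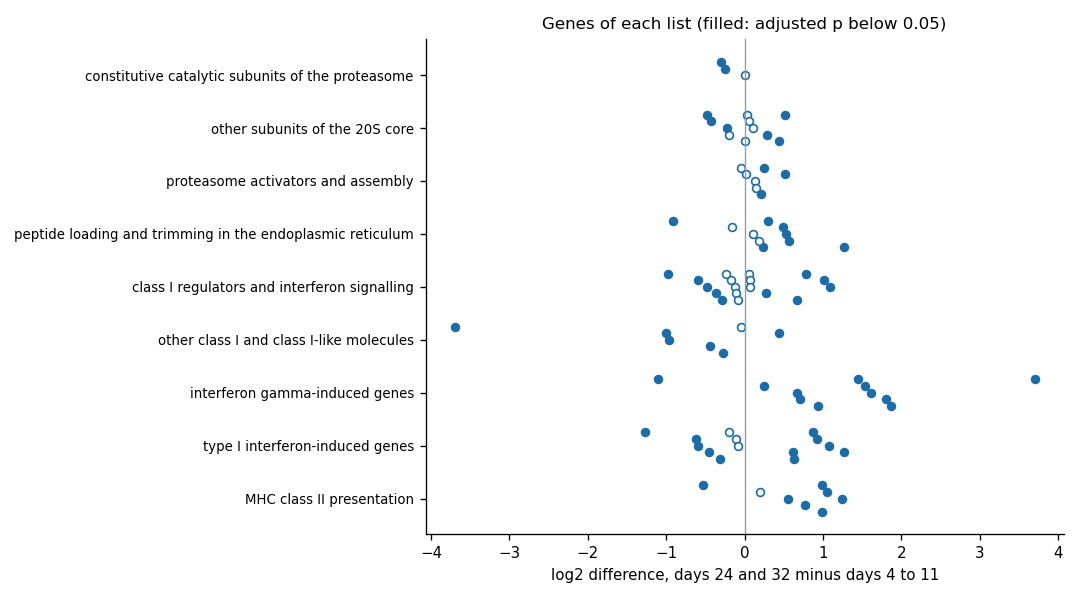
Log2 difference of days 24 and 32 minus days 4 to 11 (horizontal axis) for each tested gene of 9 pathway lists (one line of points per list, spread vertically for legibility); filled points have an adjusted p below 0.05 over all genes tested. Fcgrt at -3.70 and Ido1 at 3.70 lie farthest from 0, and 10 of 11 interferon gamma-induced genes lie to the right.

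Immune cell markers did not all run one way. The summed level of 13 T cell and intraepithelial lymphocyte markers was 8.02 to 8.24 before weaning, 8.36 to 8.63 on day 24, and 10.23, 9.19 and 9.46 on day 32. Of the 4 that were tested, Gzma, Gzmb and Ccl5 passed the filter only through day 32 arrays, so their rise was tied to it, and Zap70 differed by 0.17 after weaning. Of the defining T cell markers Cd8b1 stayed below 4 on every array, at 2.38 to 2.87 before weaning and 2.76 to 3.97 after it. Cd3d reached 6.74 after weaning against 5.18 before it, Cd3e 5.95 against 5.13, Cd3g 5.51 against 4.06 and Cd8a 4.85 against 4.22. None of these passed the filter or was tested. The 6 B cell markers summed to 6.16 to 6.65 before weaning, 7.17 to 7.76 on day 24, and 10.14, 6.35 and 6.51 on day 32. Macrophage and dendritic cell markers summed to 11.50 to 11.67 before weaning and 10.89 to 11.42 after it, with 2 of 4 tested higher and 2 lower. Of these, Cd14 passed the filter only through arrays after weaning and Cd68 only through arrays before it. Plasma cell markers summed to 10.21 to 10.52 before weaning, 11.19 to 11.98 on day 24, and 13.62, 13.51 and 13.71 on day 32. Adipocyte markers summed to 5.37 to 9.49 before weaning, 10.07 to 11.25 on day 24 and 11.42 to 11.63 on day 32. On day 32 replicates 2 and 3, B cell and general leukocyte markers were within the range of the suckling arrays, at 6.35 and 6.51 and at 8.44 and 8.75. T cell markers (9.19 and 9.46), plasma cell markers (13.51 and 13.71) and adipocyte markers (11.42 and 11.61) on those 2 arrays were above every earlier array. Tap1 stood there at 7.50 and 7.89 and Psmb10 at 9.93 and 9.99. The part of these cell types in the class I rise was not tested. Without day 32 replicate 1 all 9 genes were still higher after weaning, by 0.35 for H2-K1 to 1.36 for Tap1 and Psmb10.

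**Figure D5:**
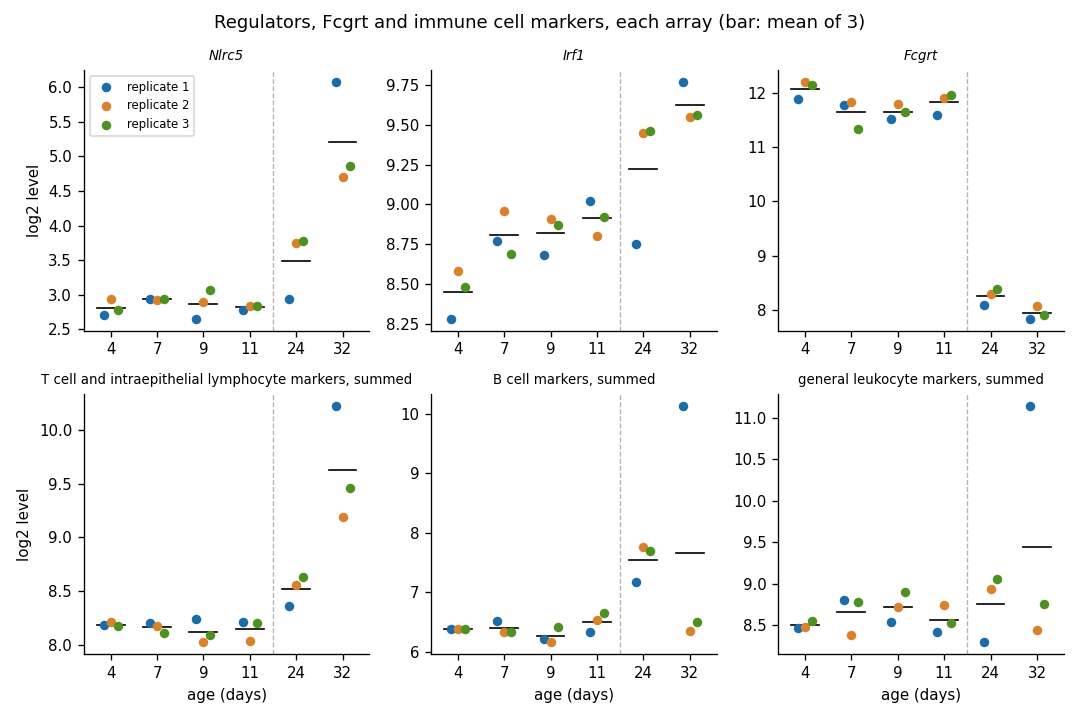
Log2 level of Nlrc5, Irf1 and Fcgrt and the log2 of the summed levels of 3 immune marker lists on each array (points), by age in days, with bars for means of 3; each panel has its own scale. Day 32 replicate 1 is the highest array in Nlrc5 (6.08), Irf1 (9.77), T cell (10.23), B cell (10.14) and general leukocyte markers (11.15).

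Hybridization controls and sex pattern also differed between the stages. Within the 10 arrays of the higher hybridization group, 9 of 9 class I genes were higher after weaning, by 0.53 for H2-D1 to 1.49 for Tap1. With only 4 and 6 arrays these cover days 4, 7 and 11 before weaning. Within the 8 arrays with low Xist, 3 before and 5 after weaning, the differences were 0.40 for H2-K1 (adjusted p = 0.0682) to 1.62 for Tap1, and 8 of the 9 were called. Both sets of arrays were chosen after seeing the data.

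The genes nearest to the class I genes in their course over the ages were found by the root mean square distance between age means, each centred on its mean over the 6 ages. Nearest to the median course of the 9 were Adprm and Spen (0.04 each), Mmaa, Pkp2 and Gsdmd (0.05 each). Psmb8 and Psmb9 were each other's nearest gene among all tested, at 0.06. The nearest gene was Pak2 for H2-D1 (0.02), Lactb2 for H2-K1 (0.03), Nup210 for B2m (0.03), Ttc39a for Tap1 (0.04), Adprm for Tap2 (0.02), Resf1 for Tapbp (0.02) and Tm4sf20 for Psmb10 (0.05).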

How the data were processed

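RNA from 18 mouse ilea was measured on Affymetrix arrays, and the authors deposited a table of log2 levels (RMA, per the submitters' processing notes); the array model, RMA options and batches were not given in the sources used. RMA brings the arrays to a common distribution, so levels are relative within an array set, and arrays give no counts: their number limits precision. The table held 45101 probe sets; 34958 had 1 symbol in the platform annotation and 932 several, which were left out, as were unlisted ones. Each gene was read through its single-symbol probe set with the highest mean, kept at log2 6 or more on at least 3 arrays (8622 genes).

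Age differences came from limma 3.58.1 under R 4.3.3 (age as a factor, all 18 arrays, 12 residual degrees of freedom), with Benjamini-Hochberg adjusted p-values over all genes tested, called below 0.05. Subunit pairs had an exact permutation test in Python 3.11.15 with numpy 2.4.6. P-values measure the spread between individual mice. The labels give no litter or sex, so an effect shared by the mice of an age cannot be told apart from age. A day 7 array and a day 9 array share a number in their titles, whose meaning is not given. RefSeq promoter windows (GRCm38.p6) were scanned on both strands and aligned with Biopython 1.88. The fit was tested on simulated data.

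The class I genes, pathway lists and markers were chosen with earlier results of these data known. Named were all class I genes, a fixed set of related genes, up to 4 called genes per list with the largest difference after weaning, and the nearest courses. H2-Q2 and Gbp7 fall outside this rule and were named after their values were seen. Alternatives are given at the end.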

Additional observations from a re-analysis of the deposited data

How the results depend on the processing

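After weaning the class I genes kept a higher mean in 275 of 275 refits of single genes and were called in 273; the exceptions were Tapbp as the mean of its probe sets and H2-K1 on the 8 arrays with low Xist. The count of 9 fell to 7 with the filter at log2 8 and to 6 with the mean of probe sets, where fewer of the genes reached the filter, and to 8 on the low-Xist arrays. The 3 subunit pair changes ranged from 1.08 to 1.71 over the alternatives and left-out arrays. For day 32 minus day 24 the count of 1 became 0 with no filter, with the mean of probe sets, median centring, array weights, only the ages compared, Xist as a covariate, and day 32 replicate 1 and day 24 replicate 1 left out together, and 2 with the hybridization group as a block. With single arrays left out it ran from 0 to 1, and the count of genes whose earlier step was larger from 2 (without day 24 replicate 3) to 5. Signs turned as follows, and the cause was not tested. With the mean of probe sets, Tapbp had -0.14 from day 11 to day 24, and the difference between steps was -0.49 for Tapbp, 0.12 for H2-K1 and 0.16 for H2-D1 (0.04 for H2-D1 with the hybridization block). The difference of Psmb6 after weaning was 0.00 with quantile, 0.01 with median and 0.07 with loess normalization, 0.13 with the hybridization block, 0.09 with Xist, 0.07 and 0.03 on the higher-hybridization and low-Xist arrays, 0.09 without the 2 arrays, and -0.04 to 0.06 with single arrays left out. Pdia3 had 0.08 with the block and 0.07 on the higher-hybridization arrays. From day 24 to day 32, without the 2 arrays, Tapbp had -0.10, Psmb8 -0.12 and Psmb9 0.00; with single arrays left out Tapbp ran from -0.09 to 0.20 and Psmb10 from -0.29 to 0.12. The 2-array removal and both array subsets were added after seeing the data. No paired analysis was possible because replicate numbers were given in accession order and pair nothing. Nlrc5, Ido1 and the dim Tap1 probe sets lie near background.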
